A study of Saccharomyces cerevisiae with 8 samples.

Results

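Total RNA levels were compared between pools of haploid spores and the diploid hybrid yeast that they came from, over all annotated transcripts and beyond the mating genes. Reads of both parental alleles of a transcript and of 3 sequencing lanes were added up per library, and 6844 of 7263 transcripts reached a mean normalized count of at least 10 and were tested. The parents of the cross were S96, a laboratory strain of Saccharomyces cerevisiae, and SK1, a strain that sporulates efficiently. Of the 8 samples of the series, 4 are the RNA libraries compared here. The first group held 2 cultures of the S96 x SK1 hybrid (hybrid A and hybrid B), and the second held 2 pools of spores of that cross (pool A and pool B). All cultures were grown in YPD, a rich glucose medium. A pool is a mixture of very many segregants selected for 1 mating type and grown overnight after germination, so that its level of a transcript is a mean over recombinant genomes. Pools and hybrids thus differed in ploidy, in mating type, in passage through meiosis and outgrowth and in the frequency of the parental alleles, and these cannot be told apart here. A and B are biological replicates by the study's methods. How far back they were separate (cross, sporulation or culture) was not found there, and p-values measure the spread between these samples. Counts were scaled to the library, so a change in the total RNA of a cell would not be seen.

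Diploid a/alpha cells carry both mating-type alleles, and the a1-alpha2 repressor formed from them silences the haploid-specific genes, among them the pheromone signalling pathway. Haploid cells express this pathway together with the genes of their own mating type. Apart from mating, a growing yeast cell balances 2 large programmes: the genes that build ribosomes, which are active in fast growth, and the environmental stress genes controlled by the activators Msn2 and Msn4, which are active in slow growth or under stress. The phosphate genes form a further regulon under the activator Pho4, which works when the cyclin-dependent kinase Pho85 with its cyclin Pho80 is inhibited.

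The stretches before the start codon of 4 genes are shown because the groups of genes described below carry these short sequence words. They were read from the S288C reference genome R64 (RefSeq), 5′ to 3′ towards the gene, and capitals mark the words searched on both strands. HSP12, encoding a small membrane-associated stress protein, is shown with the word AGGGG, the stress response element read by Msn2 and Msn4 (chrVI:106792-106911, plus strand). PHO84, encoding the high-affinity phosphate transporter, is shown with CACGTG, the core word of Pho4 (chrXIII:26164-26283, minus strand). AGA1, encoding the anchor subunit of a-agglutinin, is shown with TGAAACA, the pheromone response element read by Ste12 (chrXIV:703440-703559, plus strand). UTP11, a subunit of the processome that matures the small ribosomal subunit, is shown with GATGAG and AAATTTT, which are parts of the PAC and RRPE words of ribosome biogenesis genes (chrXI:256573-256692, minus strand). UTP11 was the member of its list with the lowest p that held both words more than 100 bases before the start codon.
HSP12: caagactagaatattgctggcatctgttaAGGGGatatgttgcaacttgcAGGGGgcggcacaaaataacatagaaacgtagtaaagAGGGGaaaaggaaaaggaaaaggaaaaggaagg
PHO84: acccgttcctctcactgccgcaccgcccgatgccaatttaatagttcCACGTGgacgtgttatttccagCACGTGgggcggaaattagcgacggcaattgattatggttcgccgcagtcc
AGA1: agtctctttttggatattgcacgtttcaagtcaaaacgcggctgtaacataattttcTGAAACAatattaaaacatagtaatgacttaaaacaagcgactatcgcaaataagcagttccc
UTP11: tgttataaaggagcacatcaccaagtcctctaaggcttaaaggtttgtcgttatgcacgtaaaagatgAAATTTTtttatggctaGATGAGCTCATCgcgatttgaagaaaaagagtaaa

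The 4 libraries held 45279970 to 52572032 read pairs on annotated transcripts. Pairs on no annotated transcript made up 35.8% and 36.4% of the pairs assigned to a transcript or to none in hybrid A and pool A, and 28.5% and 26.8% in hybrid B and pool B. Lanes 6 and 7 of a library correlated at 0.997 or more (Pearson's r across transcripts), whereas lane 8, which held 62.4% to 69.2% of the pairs, correlated with lane 6 of the same library at only 0.884 to 0.909 and with lane 8 of the other libraries at 0.932 to 0.955. The number of calls, and the calls of some lists and genes, are therefore also given for lanes 6 and 7 and for lane 8 alone. This split was made after the data had been seen. The pools differed more from each other than the hybrids did, with a median absolute log2 ratio of 0.42 between the pools and 0.26 between the hybrids over 6501 transcripts with a mean count of at least 50.

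In edgeR's quasi-likelihood test at a false discovery rate (FDR) of 0.2 and a fold of more than 1.5, 72 transcripts rose in the pools, which is 1.05% of those tested, and 4 fell, which is 0.0584%. The pools lay on the called side of both hybrids for all 76. At an FDR of 0.05 there were 35 risen transcripts (0.511%) and none that fell. Without adjustment, 331 higher and 224 lower transcripts had p under 0.05, and DESeq2 called 179 higher and 83 lower. Without hybrid A, edgeR called 57 higher and 1 lower, and without hybrid B 38 higher and 5 lower. Without pool A it called 406 and 372, and without pool B 444 and 412, where the lone pool was assumed to vary like the hybrids, which were closer to each other. In all, 61 of the risen transcripts were coding, 8 were SUTs (stable unannotated transcripts), 1 was a CUT (a cryptic unstable transcript, degraded by the nuclear exosome) and 2 were of other kinds. Taken apart, lanes 6 and 7 gave 68 calls and lane 8 gave 43, with 32 transcripts called in both, all of them also called in the sum. All 76 had the same direction in both parts of the data. They were called on the sum of these parts, so the shared direction is not independent support.

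**Figure D1:**
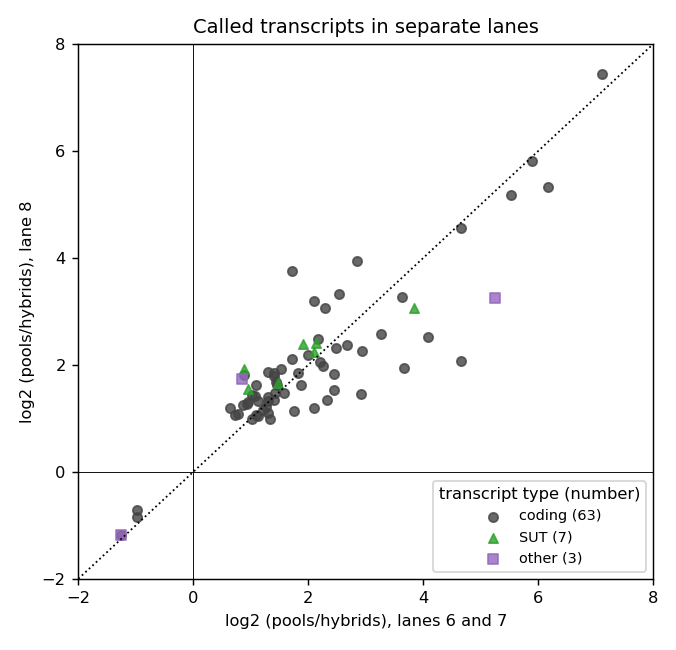
Log2 ratio of pools to hybrids of called transcripts in lanes 6 and 7 (x axis) and in lane 8 (y axis), each point a transcript by type, with the line of equality dotted. Shown are 73 of the 76 called transcripts, leaving out 3 with 0 reads in a hybrid. All points lie in the quadrants where both parts of the data share the direction, and the calls were made on the sum of these parts.

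The genes of cell identity served as a check of the labels. Of the a-specific genes, 6 were in the table and 5 rose. STE2, the alpha-factor receptor, had normalized counts of 262 and 422 in hybrids A and B and of 23618 and 15653 in pools A and B. BAR1, the protease that degrades alpha-factor, had 45.2 and 85.7 in the hybrids and 3123 and 3486 in the pools. The labels do not give the mating type of the pools, and in both pools these a-specific genes were far above the hybrids. Fewer cells of a type and less RNA per cell cannot be told apart in such bulk samples. AGA2 rose by 7.36 ± 0.44 (log2, standard error) and STE6, the exporter of a-factor, by 3.40 ± 0.55. MFA2, an a-factor gene, had 48.5 and 0 in the hybrids and 7841 and 8515 in the pools. MFA1, the other a-factor gene, stayed at 9.03 and 0 in the hybrids and 34.0 and 63.1 in the pools and was not called (edgeR adjusted p = 0.751).

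No alpha-specific gene was called. The alpha-agglutinin gene SAG1 had 1246 and 1022 in the hybrids and 1320 and 1013 in the pools, and STE3, the a-factor receptor, had 112 and 236 in the hybrids and 73.9 and 150 in the pools. The 2 groups overlapped for both genes. All 6 haploid-specific genes in the table rose. GPA1, the G alpha subunit of the pheromone receptor, rose 24.2-fold, from 155 and 196 to 4067 and 4406, and STE4, its G beta subunit, rose 7.47-fold. The smallest rises were those of STE5, the scaffold of the pheromone kinase cascade, by 1.85 ± 0.33, and of AXL1, which sets the axial budding of haploids, by 1.63 ± 0.32 on the log2 scale. AXL1 lost its call without hybrid B. The log2 change of AXL1 was 3.40 ± 0.48 in its SK1 rows and 0.85 ± 0.37 in its S96 rows (edgeR adjusted p = 0.513 for S96). The difference between these rows was not tested. In lanes 6 and 7 AXL1 and STE6 were not called (edgeR adjusted p = 0.289 and 0.353), and in lane 8 STE5 was not (edgeR adjusted p = 0.229). The transcript that covers RME1, a repressor of meiosis, rose by 4.01 ± 0.49, and NEJ1, which haploids need for non-homologous end joining, by 3.28 ± 0.48.

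Among called coding transcripts outside these lists, CAN1 was furthest apart (chromosome V 31445 to 33709, minus strand, in the coordinates of the deposited annotation). CAN1 encodes the arginine permease of the plasma membrane. Its normalized counts were 234 and 229 in the hybrids and 9665 and 9056 in the pools, so that each group was tight and the rise was 40.5-fold (log2 5.34 ± 0.29, edgeR adjusted p = 1.26e-06). Both alleles took part. The SK1 rows went from 118 and 80.4 to 1523 and 1485, and the S96 rows from 115 and 148 to 8142 and 7571, while the SK1 share of the DNA of pool A around CAN1 was 49.0%. CAN1 was called in all 17 alternative fits. Of 25 amino acid permeases only CAN1 was called, and their median log2 ratio was 0.06.

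Several phosphate genes rose. Of 27 tested, 5 rose (18.5%, against 1.05% of all transcripts) and none fell. Both pools lay above both hybrids for 14 (51.9%, against 18.4% of all transcripts). PHO84 (chromosome XIII 23941 to 25853, minus strand) had 1390 and 1288 in the hybrids and 11798 and 11047 in the pools, an 8.53-fold rise (log2 3.09 ± 0.25, edgeR adjusted p = 2.75e-05). SPL2, which represses the low-affinity phosphate transporters, had 112 and 106 in the hybrids and 1062 and 1578 in the pools. For neither gene did the groups come near each other. PHO5, the secreted acid phosphatase, had 654 and 398 against 2486 and 3322 and rose 5.52-fold. GPP2, a glycerol phosphatase, rose 2.47-fold, and VTC3, a subunit of the vacuolar polyphosphate polymerase (named after its values were seen), rose by 1.06 on the log2 scale (edgeR adjusted p = 0.143). The regulators themselves were not called: PHO4 had 528 and 755 in the hybrids and 618 and 393 in the pools, PHO80 1972 and 1661 against 1573 and 1838, and PHO81, the inhibitor of the kinase, 2541 and 2892 against 3321 and 4384. Without hybrid A or without hybrid B, 3 of the list were called, and GPP2 was lost in both cases. Without pool A there were 9 calls. In lanes 6 and 7 the list had 3 risen members and in lane 8 it had 4. SPL2 was called in lane 8 (edgeR adjusted p = 0.0031) and not in lanes 6 and 7 (edgeR adjusted p = 0.934).

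The rows of the 2 parental alleles of PHO84 differed in their values. Its S96 rows went from 550 and 649 in the hybrids to 10490 and 10510 in the pools, a log2 change of 4.14 ± 0.29. Its SK1 rows had 840 and 639 in the hybrids and 1304 and 534 in the pools, and the groups overlapped (log2 0.32 ± 0.44, edgeR adjusted p = 0.923). SK1 made up 53.9% of the DNA of pool A around the gene and 55.1% of its RNA in the hybrids, but 8.28% of its RNA in the pools. The difference between the alleles was not tested here.

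The general stress genes had the highest number of called members of any list, although some smaller lists had higher shares. Of 48 tested, 10 rose (20.8%, against 1.05% of all transcripts) and none fell. Both pools lay above both hybrids for 30 (62.5%, against 18.4% of all transcripts), and for no member did both pools lie below. The median log2 ratio was 0.71, with 0.78 in pool A and 0.84 in pool B, while the median over all transcripts was 0.01. HSP12 (chromosome VI 107209 to 107745) had 799 and 700 in the hybrids and 4715 and 5515 in the pools, a 6.82-fold rise (log2 2.77 ± 0.28, edgeR adjusted p = 0.000219). DDR48, a DNA damage-responsive protein whose transcript also covers YMR173W-A, started from 8704 and 7845 and reached 40901 and 30616. YGP1, a secreted glycoprotein made as nutrients run out, rose 4.38-fold from 986 and 1243. These genes span a wide range of levels, and for each of them the pools were clear of the hybrids. RTC3 rose 6.24-fold and DDR2, a multistress gene, 7.17-fold, from 71.1 and 286 to 1227 and 1335. The cell wall protein gene SPI1, the nicotinamidase gene PNC1, the hexokinase genes GLK1 and HXK1 (each in a transcript shared with a dubious or small reading frame) and the chaperone gene HSP26 rose by 2.29, 1.12, 1.72, 1.50 and 1.38 on the log2 scale. Each of these 5 was lost in edgeR's fit when 1 hybrid was left out: SPI1 without hybrid A, HXK1 without hybrid B and the others in both cases. The list then had 6 calls without hybrid A and 6 without hybrid B, and 21 and 19 without pool A and pool B. In lanes 6 and 7 the list had 9 risen members, but in lane 8 only 4. RTC3 was not called in lane 8 (edgeR adjusted p = 0.243). HOR7 (log2 1.19), a stress gene outside the list, also rose and was named after its values were seen.

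Neither activator gene of this group was called. MSN2 had 6416 and 7820 in the hybrids and 8480 and 3710 in the pools, and MSN4 1419 and 1370 against 2338 and 1734 (edgeR adjusted p = 0.744). Heat shock and protein folding genes overlap this list in part. Of 51 tested, only HSP12 and HSP26 rose and the median log2 ratio was -0.04. The catalase gene CTT1 had 794 and 896 in the hybrids and 1622 and 1800 in the pools, above both hybrids in both pools but not called (edgeR adjusted p = 0.41).

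**Figure D2:**
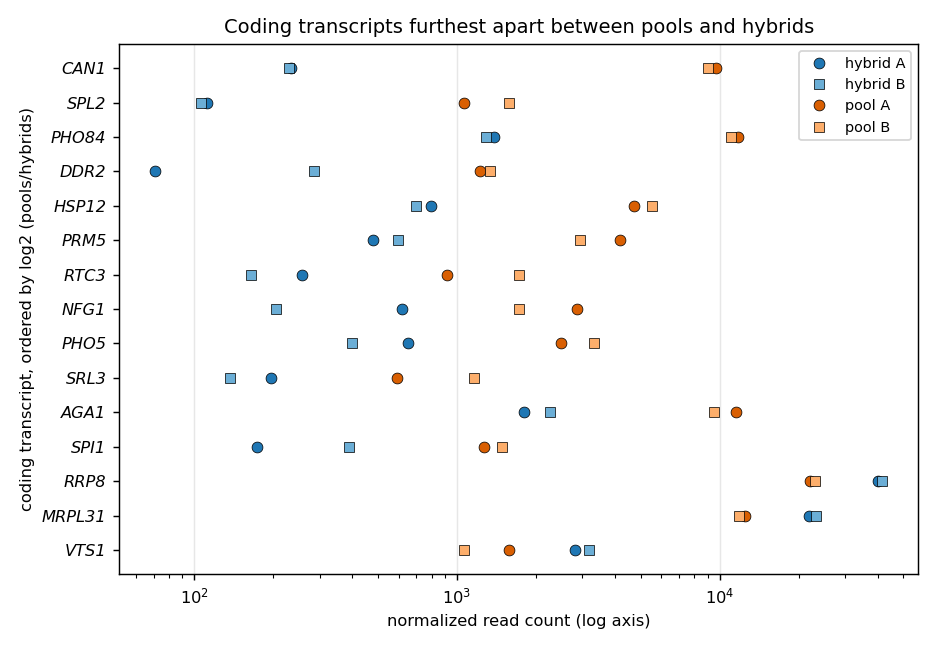
Normalized read count (log axis) in the 4 libraries of the 15 coding transcripts with the largest called differences outside the a, alpha and haploid lists, of which 12 rose and 3 fell. Transcripts were shown only if both pools (orange) lay on the same side of both hybrids (blue), and CAN1 is furthest apart.

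Genes that pheromone signalling is known to induce formed another group. Of 18 tested, 5 rose and none fell, and both pools lay above both hybrids for 13 (72.2%), against 1.05% called higher and 18.4% above over all transcripts. AGA1 had 1797 and 2268 in the hybrids and 11518 and 9560 in the pools, a 5.18-fold rise (log2 2.37 ± 0.26, edgeR adjusted p = 0.000453). PRM5, a pheromone-regulated membrane protein, had 480 and 598 against 4170 and 2938, a 6.59-fold rise. SST2, which damps the signal by acting on Gpa1, rose 3.61-fold, TEC1, the transcription factor of filamentous growth, 2.84-fold, and GIC2, an effector of the GTPase Cdc42, 2.41-fold. In pool A each of these 5 genes was higher than in pool B. Without hybrid A there were 3 calls, as TEC1 and GIC2 were lost, and GIC2 was also lost without hybrid B. There were 8 without pool A and 8 without pool B. STE12, the activator of the pathway, had 2190 and 2648 in the hybrids and 6405 and 3844 in the pools and was just short of the threshold (edgeR adjusted p = 0.23). PRM2, another pheromone-regulated gene, lay on the other side, although not called, and had 498 and 171 in the hybrids and 101 and 155 in the pools. A transcript that covers PRM7, of the same PRM name series but outside this list, was called lower (log2 -1.21, edgeR adjusted p = 0.0633). It was named after its values were seen. In lanes 6 and 7 the list had 4 risen members and in lane 8 it had 6.

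Genes of the mother-daughter separation after cytokinesis, most of which are switched on in the daughter cell, were mostly higher in the pools. Of 20 tested, 4 rose and none fell, both pools lay above both hybrids for 12 (60.0%), against 1.05% called higher and 18.4% above over all transcripts, and the median log2 ratio was 0.65. RME1, already counted above among the haploid-specific genes, was 1 of these 4. NIS1, a bud neck protein, rose 2.98-fold, from 2300 and 2430 to 6474 and 7621. AMN1, which turns off mitotic exit in daughters, rose 3.76-fold, from 1306 and 1649 to 7496 and 3612. DSE2, a daughter-specific wall enzyme, rose 1.93-fold (edgeR adjusted p = 0.199) and lost its call when either hybrid was left out. The list had 9 calls without pool A and 11 without pool B. Mitotic genes as a whole had a median log2 ratio of 0.03 with none of 62 called, a median lower than that of the daughter genes.

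The cell wall list had 6 risen members of 69 (8.70%, against 1.05% of all transcripts) and none that fell. Both pools lay above both hybrids for 30 (43.5%, against 18.4% of all transcripts). TIR1, a mannoprotein made under anaerobic conditions and in the cold, rose 4.23-fold, from 769 and 1124 to 4916 and 3088, and CWP1, a mannoprotein found at the birth scar, rose 2.54-fold, from 6271 and 7145 to 12582 and 21460. YGP1 and SPI1 were named above. CWP1 lost its call without hybrid A and also without hybrid B, and the list then had 2 calls without hybrid A and 3 without hybrid B, against 16 and 14 without pool A and pool B. In lanes 6 and 7 the list had 5 risen members and in lane 8 it had 3. TIP1 and CHS1, the repair chitin synthase, rose by 1.17 and 1.08 on the log2 scale and were named after their values were seen. The risen transcript with the highest count was NCW1, also a wall protein gene outside the list, at 22859 and 21385 in the hybrids and 58363 and 61034 in the pools. Among the filamentous growth genes, TEC1 was the only call of 16 (6.25%, against 1.05% of all transcripts), and it was lost without hybrid A. Both pools lay above both hybrids for 10 of the 16 (62.5%, against 18.4% of all transcripts), with a median log2 ratio of 0.49. FLO11, the flocculin of filamentous growth, lay lower in both pools (374 and 565 against 234 and 292) but was not called (edgeR adjusted p = 0.808).

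Nutrient and carbon genes moved in smaller numbers. FIT2 and FIT3, mannoproteins that retain iron in the wall, rose 3.15-fold and 2.26-fold, and both pools lay above both hybrids for 21 of 45 metal genes (46.7%, against 18.4% of all transcripts). None of 30 nitrogen catabolite genes was called, although the pools lay above the hybrids for 13 (43.3%, against the same 18.4%). Of 28 genes of glycolysis and fermentation, 4 rose (14.3%, against 1.05% of all transcripts): GPP2, GLK1, HXK1 and TDH1. In lanes 6 and 7 this list had 2 risen members and in lane 8 it had 1. TDH1, the glyceraldehyde phosphate dehydrogenase isoform made in slow growth, had 642 and 820 in the hybrids and 1736 and 2344 in the pools. CIT2, the peroxisomal citrate synthase, rose 3.57-fold, COX5B, a cytochrome oxidase subunit made when oxygen is short, 2.56-fold, BAT2, the cytosolic branched-chain transaminase, 1.96-fold and ADE17, of purine synthesis, 2.04-fold. CIT2 and FIT2 lost their calls without hybrid B, and COX5B, TDH1, BAT2, ADE17 and FIT3 lost theirs without hybrid A and also without hybrid B. APE1, a vacuolar aminopeptidase, rose 2.90-fold and lost its call without hybrid B. A transcript across a Ty long terminal repeat and THI22, a thiamine pathway gene, rose 2.77-fold and lost its call without hybrid A and also without hybrid B. Among the risen genes not yet described were NFG1 (5.59-fold), SRL3 (5.28-fold, lost without hybrid B) and RDH54, a recombination helicase gene (log2 2.02, named after its values were seen).

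Genes of meiosis and sporulation, the programme through which the spores had passed before outgrowth, were covered in part. Of 37 early meiosis genes 21 were in the table, and of 49 spore formation genes 30. The early meiosis gene IME1 was not tested. Both pools lay above both hybrids for 4 of 20 early meiosis genes tested and below for 3. For 28 spore formation genes these numbers were 3 and 4, against 18.4% above and 18.1% below over all transcripts. The median log2 ratios were 0.14 and -0.09. None of these genes was called, which says little for such short lists, as only 1.05% of all transcripts were called higher.

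Only 4 transcripts fell. RRP8, a nucleolar methyltransferase of ribosome assembly, had 40257 and 41592 in the hybrids and 22151 and 23132 in the pools (log2 -0.85 ± 0.22, edgeR adjusted p = 0.199). MRPL31, a protein of the large mitochondrial ribosomal subunit, had 21894 and 23326 against 12531 and 11812 (log2 -0.89 ± 0.23, edgeR adjusted p = 0.176). VTS1, an RNA-binding protein of mRNA decay, had 2823 and 3182 against 1572 and 1061 (log2 -1.19 ± 0.30, edgeR adjusted p = 0.184). For RRP8 and MRPL31 the replicates were close, while the pools of VTS1 differed by 0.57 on the log2 scale. The calls of all 3 genes sat near the threshold and none was kept when either hybrid was left out. With the replicate block RRP8 and MRPL31 were not called. The fourth was a transcript that joins PRM7, YDL038C and BSC1 (5079 and 4784 against 2115 and 2158, named after its values were seen).

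The lists that hold RRP8 and MRPL31 had small differences in the same direction. Of 124 ribosome biogenesis genes, both pools lay below both hybrids for 94 (75.8%, against 18.1% of all transcripts) and above for 2, although edgeR called only RRP8. DESeq2 called 15 of them lower. Without pool A 47 of them were called lower and without pool B 39, and without hybrid A and also without hybrid B none. The median log2 ratio of the group was -0.45, which is 1.37-fold lower in the pools, with similar values in pool A (-0.43) and pool B (-0.48), in lanes 6 and 7 (-0.46) and in lane 8 (-0.45). UTP11, shown above, was not called, at a log2 ratio of -0.83 ± 0.25 (edgeR adjusted p = 0.308). Subunits of RNA polymerases I and III, which transcribe the ribosomal RNA and tRNA genes, followed with a median of -0.33 and both pools below for 14 of 27 (51.9%, against 18.1% of all transcripts). Translation factors (12 of 36, or 33.3%) and tRNA synthetases (8 of 21, or 38.1%) lay lower in smaller shares.

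Mitochondrial ribosomal proteins had both pools below both hybrids for 36 of 66 (54.5%, against 18.1% of all transcripts), with a median of -0.35 that came more from pool A (-0.60) than from pool B (-0.10). For the cytoplasmic ribosomal proteins, none of 82 large-subunit and 57 small-subunit genes was called, their medians were -0.05 and -0.08, and pool A was lower by 0.37 and 0.27 than pool B. The core and variant histone genes were all on the lower side, with log2 ratios from -0.78 to -0.02 and both pools below for 7 of 11 (63.6%, against 18.1% of all transcripts), but edgeR called none. HHT2, a histone H3 gene, had the lowest ratio (-0.78 ± 0.23, edgeR adjusted p = 0.278, named after its values were seen). DNA replication genes had a median of -0.02 and none of 50 was called.

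**Figure D3:**
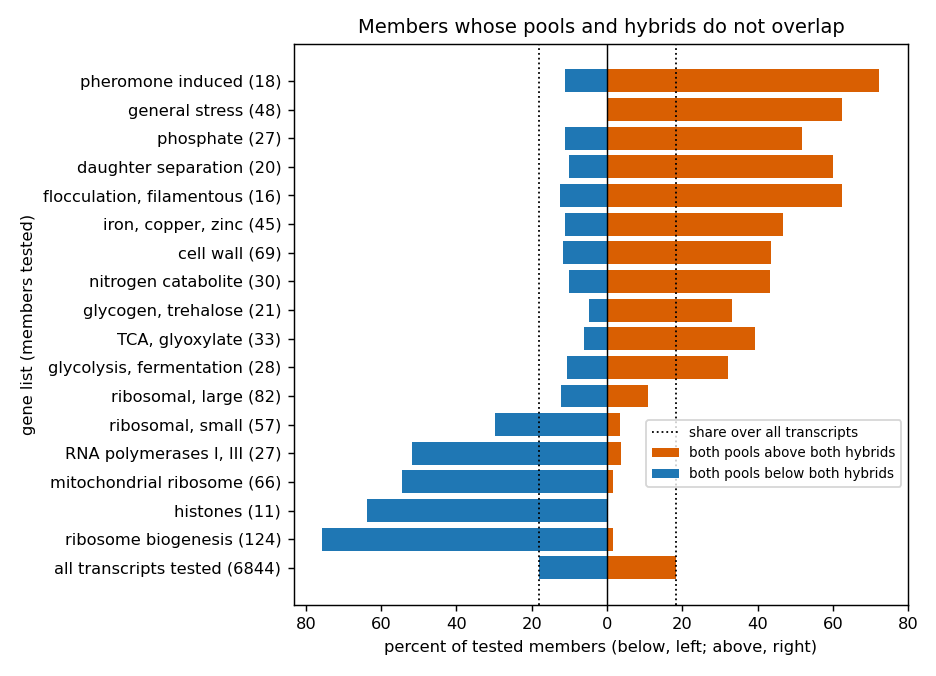
Share of tested members of each gene list (y axis, number tested in brackets) for which both pools lay above both hybrids (orange, right) or below both (blue, left), in percent, with the shares over all 6844 transcripts dotted. Ribosome biogenesis reaches 75.8% below, and the pheromone and general stress lists reach 72.2% and 62.5% above.

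**Figure D4:**
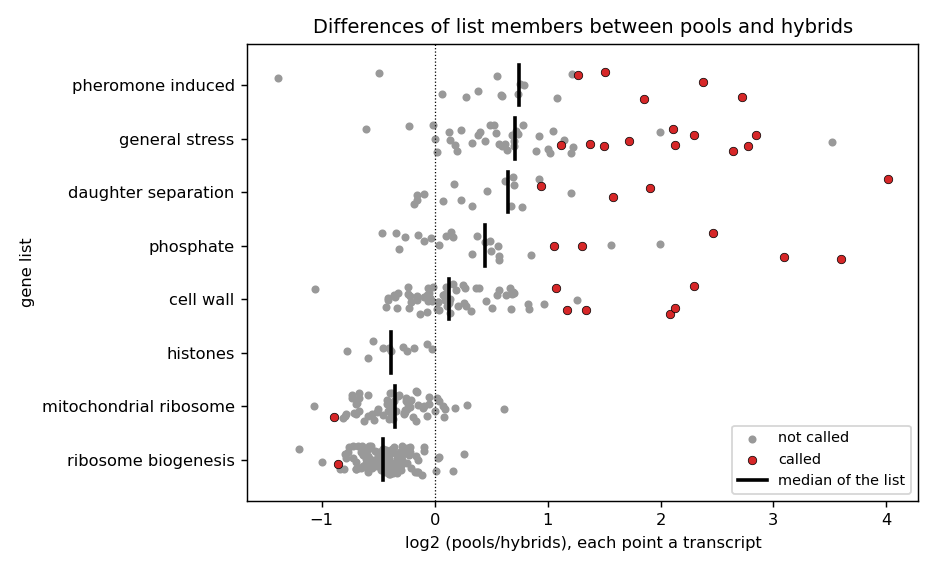
Log2 ratio of pools to hybrids (x axis) of every tested member of 8 gene lists (y axis), with called members in red, others in grey and the median of each list as a black bar. In the rising lists a few members lie far to the right, whereas ribosome biogenesis, mitochondrial ribosome and histone genes lie mostly to the left of 0, with medians of -0.45, -0.35 and -0.39.

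The words in the 500 bases before the start codon were counted for 4955 coding transcripts with a RefSeq match. AGGGG was present before 34.2% of all genes and before 81.8% of the general stress genes. Outside that list, genes with at least 2 copies had a median log2 ratio of 0.11, against -0.01 for the others, and both pools lay above both hybrids for 24.7% against 17.7% of them. CACGTG was present before 6.34% of all genes and before 59.3% of the phosphate genes. The 5 called phosphate genes all carried it, but outside the list genes with and without it had medians of 0.00 and -0.00. The 32 genes outside the list with at least 2 copies had a median of 0.07, and both pools lay above both hybrids for 25.0% of them against 18.4% of the others. TGAAACA was found before 11.5% of all genes and before 19 of the 57 risen genes with a window, mating genes included. Of the pheromone-induced list, 11 of 15 held it, with a median log2 ratio of 0.79 against 0.91 for the others. Among the 5 called members, 4 held it. Outside the list, genes with and without it had medians of 0.02 and -0.00. Both pools lay above both hybrids for 22.4% against 17.9% of these.

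GATGAG together with AAATTTT was found before 13.0% of all genes and before 86.1% of the ribosome biogenesis genes. The 541 genes outside that list with both words had a median log2 ratio of -0.11, against 0.03 for the rest, and both pools lay below both hybrids for 32.5% of them against 16.4%. No match of GATGAG overlaps one of AAATTTT, while AAATTTT can overlap its own reverse complement, and a match in this window is only a match of letters.

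Among the non-coding transcripts, 8 of 762 SUTs (1.05%) and 1 of 705 CUTs (0.142%) rose and none fell, so that the share of SUTs was that of all transcripts (1.05%) and the share of CUTs was lower. SUT612 (chromosome IX 321909 to 323477, minus strand) had 0 reads in both hybrids and normalized counts of 758 and 104 in the pools. Against a floor of 3 reads over both hybrids, it was at least 278-fold higher in both pools together and at least 63.8-fold higher in pool B alone. It runs against the a-specific gene BAR1 and overlaps its annotated transcript by 157 of 1569 bases. Its level was 24.3% of that of BAR1 in pool A and 3.00% in pool B, so that the ratio differed between the pools. SUT612 was not called with limma-voom. CUT461 (chromosome III 29909 to 30405, minus strand; named after its values were seen) likewise had 0 reads in both hybrids, 231 and 38.4 in the pools, and was at least 86.6-fold higher in both pools together and at least 23.5-fold higher in pool B alone.

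SUT755, which lies opposite the end of AGA1, had 235 and 201 in the hybrids and 3412 and 1084 in the pools (log2 3.37 ± 0.51, edgeR adjusted p = 0.00732). It rose together with its sense gene. Its level was 13.1% and 8.86% of that of AGA1 in the hybrids and 29.6% and 11.3% in the pools, so that the groups overlapped in this ratio. SUT350 had 516 and 443 in the hybrids and 1814 and 2467 in the pools, next to HPF1, a cell wall mannoprotein gene on the other strand. HPF1 was not called and had 2341 and 2601 in the hybrids and 2206 and 1609 in the pools, and only the SUT of this pair was called. SUT307 rose by 2.31 ± 0.52 and lost its call without hybrid B. Of the transcripts opposite the coding genes with the largest changes, CUT281 (opposite PHO84), CUT025 (opposite PHO5), SUT583 (opposite RTC3) and SUT251 (opposite NFG1) were not called by edgeR. CUT281 was short of the threshold (edgeR adjusted p = 0.242) and was called with DESeq2 (adjusted p = 0.0521), with the replicate block (edgeR adjusted p = 0.171), with S96 rows only, without pool A and without pool B. CUT281 stood at 2272 and 1794 in the hybrids and 4958 and 3392 in the pools, CUT025 at 588 and 314 against 569 and 620, and SUT251 at 1401 and 1206 against 1554 and 1505. As PHO5 rose 5.52-fold, CUT025 thus went from 90.0% and 79.0% of its level in the hybrids to 22.9% and 18.7% in the pools.

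By transcript type, the median log2 ratio of pools to hybrids was 0.00 over 5088 coding transcripts, 0.15 over 762 SUTs, -0.04 over 705 CUTs and 0.05 over 289 others. For SUTs the ratio to the hybrids was 0.32 in pool A and 0.04 in pool B, and for CUTs 0.18 and -0.20. SUTs were higher in A than in B by 0.30 in the hybrids and 0.28 in the pools, and CUTs by 0.44 and 0.43. The share of pairs outside annotated transcripts, given above, was likewise higher in both A libraries, and its part in these values was not tested. The medians also differed by level. Coding transcripts with a mean count from 100 to 1000 had a median of 0.21 and those above 1000 one of -0.02, and SUTs between 100 and 1000 had one of 0.13. SUTs opposite coding transcripts over at least 50% of their length (0.14) and those not opposite any (0.16) had similar medians.

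**Figure D5:**
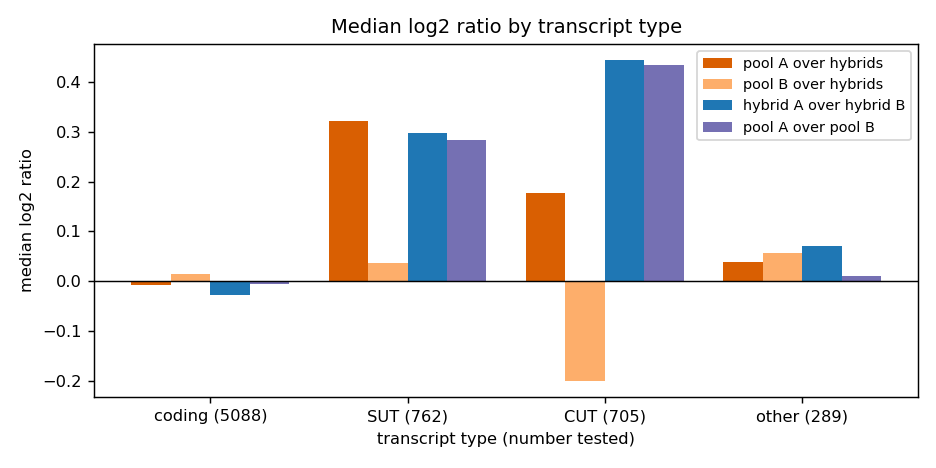
Median log2 ratio (y axis) by transcript type (x axis, number tested in brackets) of each pool to the hybrids and between the replicates of each group. For CUTs the bars between replicates (0.44 and 0.43) are taller than those between pools and hybrids (0.18 and -0.20).

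By chromosome, the median log2 ratio was between -0.01 and 0.07 for 15 of the 16 nuclear chromosomes. Chromosome I was the exception, with 0.18 over 81 transcripts and 0.26 in each pool, while its share of the DNA reads, against the hybrids, was a log2 ratio of -0.13 in pool A and 0.45 in pool B, whose DNA library was shallow. Only 1 of its transcripts was called. Chromosome III, which holds the mating-type locus and where 66.9% of the DNA reads of pool A were from SK1, had a median of -0.01 and 3 risen transcripts of 157. Calls were spread over all chromosomes, from 1 to 9 risen transcripts on each, and 1.05% of all transcripts rose. Within 30 kb of a chromosome end, 5 of 289 transcripts rose, against 67 of 6555 elsewhere, with medians of 0.14 and 0.01.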

How the data were processed

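RNA of 4 cultures was sequenced with a strand-marking total RNA protocol. Per the submitters' processing notes, the authors mapped reads with GSNAP and counted them with HTSeq per allele, transcript and lane. The deposited values are raw counts. DNA files hold read counts of both alleles at SNPs. Lanes and alleles were summed. Of 7272 transcripts, 7263 had rows for both alleles, and 150 had 0 reads. Counts were scaled with TMM, filtered at a mean of 10 and tested with edgeR 4.0.16 (R 4.3.3; quasi-likelihood, Benjamini-Hochberg, 2 residual degrees of freedom); limma 3.58.1, DESeq2 1.42.0, other scalings and filters, a replicate block, rows of 1 allele, a correction for DNA allele frequency and leaving out each library were alternatives, and lanes 6 and 7 or lane 8 alone were added after the data had been seen. Log2 ratios of single libraries used a pseudocount of 1. Floors cover counting error only. The test was checked on simulated counts.

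The members and the 49 gene lists were chosen with earlier results of these data known. Named genes were called coding transcripts with a mean count of at least 100 outside the mating lists (12 per direction), called list members (4 with the lowest p per list and direction), SUTs and CUTs likewise (4), the marker genes, and transcripts antisense to the first set. Of 5168 coding transcripts, 5035 matched RefSeq. The submitters' processing notes name R64, but the transcript annotation was seen not to match R64 on chromosome XI, so its coordinates are given as deposited.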

Additional observations from a re-analysis of the deposited data

How the results depend on the processing

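All 76 calls kept their direction in all alternatives in which they were tested. The number of higher transcripts (72) became 179 with DESeq2, 42 with lane 8 only and 35 at an FDR of 0.05, and 38 to 444 when 1 library was left out. The number of lower transcripts (4) became 8 without a filter, 83 with DESeq2, 7 with limma-voom, 12 with SK1 rows only, 31 with S96 rows only, 19 with lanes 6 and 7, 1 with lane 8, 0 at an FDR of 0.05, and 1 to 412 when 1 library was left out. With a replicate block it was 10, and 95 were higher. Deviations of same-lettered samples correlated at 0.0198 across 6501 transcripts, so the letters were not taken as pairs, although SUTs and CUTs were higher in A than in B in both groups. The median log2 change of coding transcripts (0.00) was 0.0272 with S96 rows only and -0.02235 to 0.0423 when 1 library was left out. The median log2 change of other transcripts (0.05) was 0.0919 with SK1 rows, 0.11 with S96 rows, 0.0854 with lanes 6 and 7, 0.0332 with lane 8, and from 0.0237 to 0.143 without 1 library. The median log2 change of SUTs was -0.04 to 0.34 and the median log2 change of CUTs -0.31 to 0.27 without 1 library. The cause of these shifts was not tested. Of 54 named calls, 42 stayed past the threshold with S96 rows only, 38 with SK1 rows only, 35 with lanes 6 and 7 and 34 with lane 8. Leaving out hybrid B kept fewer of them than any of these settings.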
